A study of Mus musculus with 33 samples.

Results

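Endothelial junction and identity genes were followed as a set of 10 genes chosen by name, namely Cdh5, Pecam1, Esam, Cldn5, Emcn, Plvap, Robo4, Ramp2, Sox18 and Vwf, out of 10412 genes tested. Probes annotated to these symbols numbered 13 of the 45281 measured. Gene symbols were at hand for only 15259 probes, so further probes of these genes may be uncounted. The samples were total RNA of uterine tissue from C57BL/6 mice aged 8 weeks, hybridised to 33 single-colour Illumina bead arrays. Uterus of non-pregnant mice gave 6 arrays. Counting days from fertilization, the pregnant uterine tissue gave 4 arrays each at days 4, 8, 10 and 11, 6 arrays at day 6 and 5 at day 12. The labels name no genetic change or agent in any group, and do not say how many animals a sample holds, which part of the uterus was taken, or whether placenta and embryo were included. Replicates are not said to be separate animals, so p-values measure the spread between these samples, which may be technical.

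Blood vessels are lined by endothelial cells that hold together through adherens junctions, built on VE-cadherin, and tight junctions, built on claudins. In the rodent uterus the stroma around an implanting embryo turns into decidua, whose vessels widen and multiply before the placenta forms and brings fetal vessels of its own. The genes followed here encode junction proteins, surface proteins of capillaries and veins, receptors, a transcription factor and a secreted clotting protein. Several are also made outside endothelium: platelets and leukocytes carry PECAM1, platelets carry ESAM and von Willebrand factor.

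All 10 genes were above background (detection p under 0.01) on all 33 arrays. Between 15040 and 18692 probes were detected on 31 arrays, and non-pregnant replicate 4 (13097) and day 6 replicate 4 (13149) were dimmer. Non-pregnant replicate 6 stood apart: the mean of the 10 genes was 10.60 on the log2 scale, while the remaining 5 arrays of that group had 8.89 to 9.44. Day 4 replicate 1 was also high, at 10.33, with 9.21 to 9.90 on the other 3 of its group. Where leaving out non-pregnant replicate 6 changed the calls of the 10 genes, the result is also given without it. Counts for other lists of genes are given with that array only. Levels below are log2 normalized intensities, a difference of 1 is a doubling, and a gene "rose" or "fell" where limma's p, adjusted over all 10412 genes, was under 0.05. The arrays measure bulk tissue, in which fewer endothelial cells and less RNA per endothelial cell cannot be told apart.

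Across the 7 groups all 10 genes differed by limma's F test, as did 80.2% of all genes tested. Cdh5 had the widest spread of group means, 3.18 between its highest and lowest group. Vwf had the largest adjusted p of the 10, 0.00259. The genes did not share a single course. Cdh5 was lowest in non-pregnant uterus and highest at day 11, Pecam1, Esam and Cldn5 were highest at day 10, Emcn and Plvap at day 8, Robo4 and Sox18 at day 6, and Ramp2 and Vwf at day 4. Between neighbouring places in these orders of group means, limma's test passed for Cdh5 (day 12 over day 8, and day 6 over day 4), Cldn5 (non-pregnant over day 4), Emcn and Sox18 (non-pregnant over day 11) and Plvap (day 4 over day 11). It passed for no neighbours in Pecam1, Esam, Robo4, Ramp2 and Vwf.

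**Figure D1:**
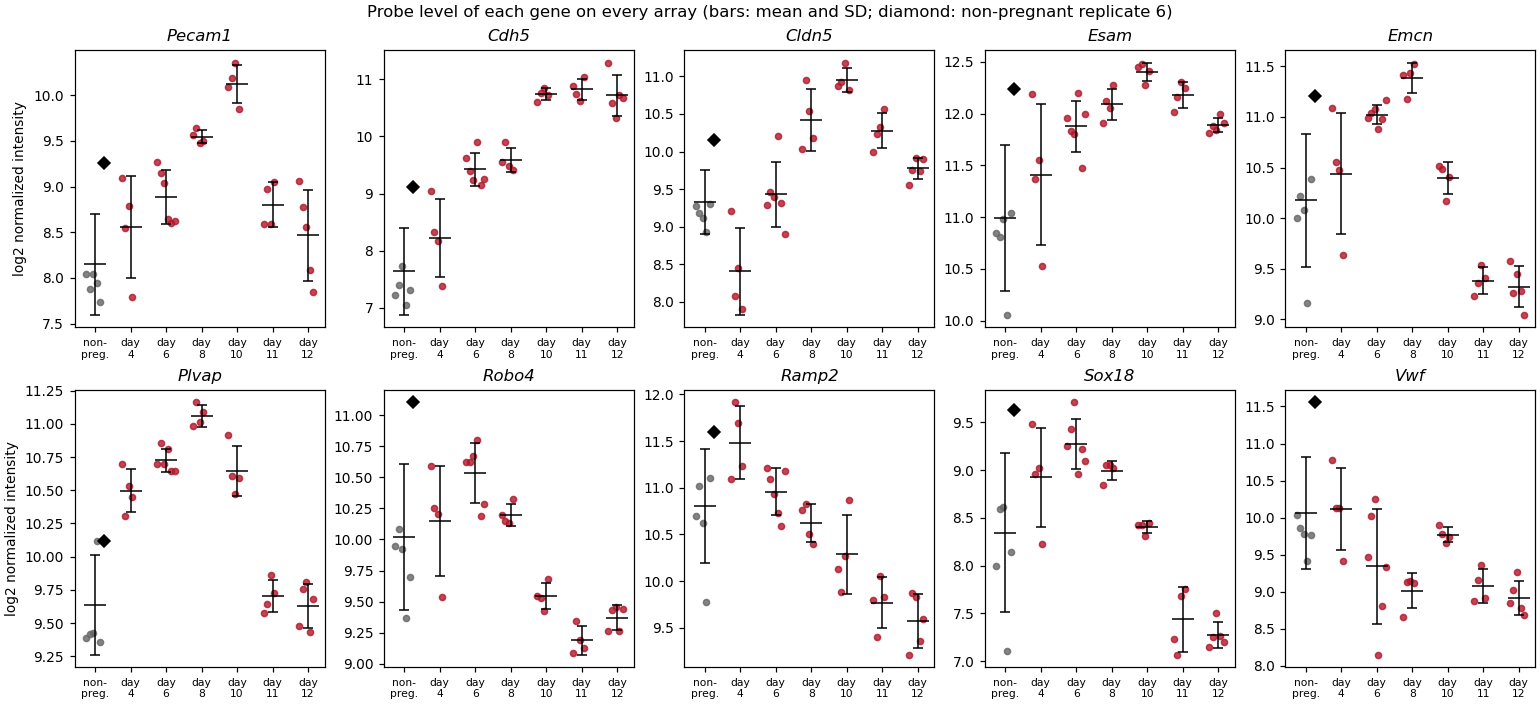
Log2 normalized intensity (vertical axis) of the probe standing for each gene on each of 33 arrays, by group in order of time (horizontal axis); grey points are non-pregnant arrays, red points arrays of pregnant uterus, bars the mean and SD, and the diamond is non-pregnant replicate 6. Cdh5 stays near 10.7 to 10.8 from day 10 to day 12, while Emcn, Sox18 and Plvap are lower at days 11 and 12 than at day 8.

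Cdh5 encodes VE-cadherin, the cadherin of endothelial adherens junctions. On the 6 non-pregnant arrays it ran from 7.05 to 9.11 with a median of 7.35, and on the day 4 arrays it was 7.38, 8.16, 8.32 and 9.04. On the 6 day 6 arrays it ran from 9.15 to 9.91 with a median of 9.33, and at day 8 it was 9.41, 9.48, 9.56 and 9.89. At day 10 it was 10.60, 10.73, 10.77 and 10.85, at day 11 it was 10.63, 10.75, 10.87 and 11.04, and at day 12 it was 10.32, 10.58, 10.67, 10.73 and 11.29. The values formed steps: every array of days 10 to 12 lay above every earlier array, and every array of days 6 and 8 lay above every non-pregnant and day 4 array. Against day 4, Cdh5 at day 6 was 2.30-fold higher (log2 difference 1.20, SE 0.28, limma adjusted p = 0.00157). Against day 8, it was 2.22-fold higher at day 10 (1.15, SE 0.31, limma adjusted p = 0.0074). Days 10, 11 and 12 could not be put in order, with adjusted p of 0.901 for day 11 against day 10 and 0.928 for day 12 against day 11. Day 11 stood 9.09-fold above non-pregnant uterus (3.18, SE 0.28).

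Pecam1, an immunoglobulin-family adhesion molecule of cell contacts, climbed to day 10 and was lower after it. At day 8 it was 9.48, 9.50, 9.56 and 9.64, at day 10 it was 9.85, 10.09, 10.19 and 10.36, at day 11 it was 8.59, 8.59, 8.97 and 9.05, and at day 12 it was 7.85, 8.09, 8.55, 8.77 and 9.06. The day 10 arrays lay above all arrays of the other groups, with a gap to the day 11 arrays. At day 11 Pecam1 was 2.50-fold lower than at day 10 (-1.32, SE 0.27, limma adjusted p = 0.000896). On the non-pregnant arrays it ran from 7.74 to 9.25 with a median of 7.99, and the top value was replicate 6.

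A second probe of Cdh5 and 2 further probes of Pecam1 were measured. The dimmer Cdh5 probe averaged 6.68 ± 0.84 in non-pregnant uterus (SD, n = 6), 8.75 ± 0.18 at day 8 (SD, n = 4) and 9.93 ± 0.21 at day 11 (SD, n = 4), the same order as the brighter one. For day 12 against day 8 the brighter and dimmer Cdh5 probes differed by 1.13 and 0.95, and both rose. For day 11 against day 10 the 3 Pecam1 probes differed by -1.32, -1.14 and -1.04, and all 3 fell. For day 11 against non-pregnant uterus they differed by 0.65, 0.58 and 0.53, and the middle probe did not pass (limma adjusted p = 0.0696). The dimmest Pecam1 probe was above background on 23 of 33 arrays.

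**Figure D2:**
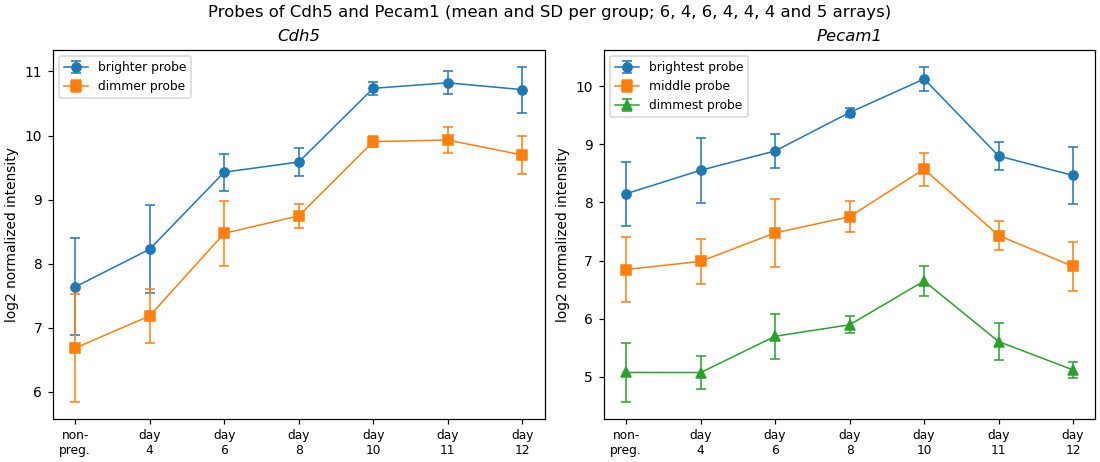
Mean log2 normalized intensity with SD (vertical axis) of each probe of Cdh5 (left) and Pecam1 (right) in the 7 groups (horizontal axis). The probes of a gene run in parallel: both Cdh5 probes hold their level from day 10 to day 12, and all 3 Pecam1 probes peak at day 10.

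Esam encodes an immunoglobulin-family protein of endothelial tight junctions. It averaged 10.99 ± 0.71 in non-pregnant uterus (SD, n = 6), 12.40 ± 0.09 at day 10 (SD, n = 4) and 11.89 ± 0.07 at day 12 (SD, n = 5). It was above non-pregnant uterus from day 6 on, by 0.88 to 1.41.

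Cldn5 encodes claudin-5, a strand protein of endothelial tight junctions, and was the only one of the 10 that fell at day 4. It was 7.90, 8.08, 8.45 and 9.21 at day 4, against a range of 8.93 to 10.16 with a median of 9.23 on non-pregnant arrays, so the groups overlapped (-0.92, SE 0.23, limma adjusted p = 0.0127). It then differed by 1.02 (SE 0.23) at day 6 against day 4 and by 1.00 (SE 0.23) at day 8 against day 6, and rose in both. Its day 10 arrays, at 10.81, 10.88, 10.92 and 11.18, lay above all its other arrays except 1 of day 8 at 10.95. At day 12 it was 9.56, 9.74, 9.76, 9.91 and 9.91, all below its day 8 arrays.

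Emcn encodes endomucin, a sialomucin of capillary and venous endothelium. At day 8 it was 11.17, 11.41, 11.44 and 11.53, at day 10 it was 10.17, 10.41, 10.49 and 10.52, at day 11 it was 9.23, 9.36, 9.41 and 9.54, and at day 12 it was 9.05, 9.26, 9.28, 9.45 and 9.57. These groups did not overlap until days 11 and 12, which did. Emcn fell at day 10 against day 8 (-0.99, SE 0.26, limma adjusted p = 0.00552) and again at day 11 against day 10 (-1.01, SE 0.26, limma adjusted p = 0.00629). By day 12 it was 4.18-fold below day 8 (-2.06, SE 0.24). Day 12 was also 0.85 below non-pregnant uterus (SE 0.22), where arrays ran from 9.17 to 11.21.

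Plvap encodes the protein of the diaphragms that close fenestrae and caveolae. Its 4 day 4 arrays, from 10.31 to 10.70, lay above all 6 non-pregnant arrays, from 9.36 to 10.12 (0.86, SE 0.14, limma adjusted p = 0.00021). It averaged 11.06 ± 0.08 at day 8 (SD, n = 4), 10.65 ± 0.19 at day 10 (SD, n = 4) and 9.70 ± 0.12 at day 11 (SD, n = 4). The day 11 arrays lay below all day 10 arrays (-0.95, SE 0.15, limma adjusted p = 4.45e-05). At days 11 and 12 Plvap differed from non-pregnant uterus by 0.06 (95% confidence interval -0.22 to 0.35) and -0.01 (-0.28 to 0.26).

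Robo4 encodes the endothelial Roundabout receptor, tied in mouse to vessel stability. It averaged 10.53 ± 0.24 at day 6 (SD, n = 6), 10.20 ± 0.09 at day 8 (SD, n = 4), 9.55 ± 0.11 at day 10 (SD, n = 4) and 9.19 ± 0.11 at day 11 (SD, n = 4). It fell at day 10 against day 8 (-0.65, SE 0.22, limma adjusted p = 0.0401), with no overlap of arrays. Robo4 and Esam lie on chromosome 9 with Robo3 and Msantd2 as the only genes between them in GRCm38.p6. Their group means ran apart: Esam was 1.19 above non-pregnant uterus at day 11 and Robo4 was 0.83 below it. With group means removed they varied together, with a Pearson r of 0.89 over 33 arrays and 0.53 over days 6 to 12.

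Promoter sequence was at hand for 3 of the 10 genes, from RefSeq on GRCm38.p6, and is shown for all 3. Whether the letters marked in it bear on the levels was not tested. Each line gives the 250 bases before the start of the gene, 5′ to 3′ on the plus strand, for Emcn at chr3:137340828-137341077, Robo4 at chr9:37401722-37401971 and Cldn5 at chr16:18776597-18776846. Capitals mark AGGAAG or its reverse complement CTTCCT, a core bound by ETS factors.
Emcn: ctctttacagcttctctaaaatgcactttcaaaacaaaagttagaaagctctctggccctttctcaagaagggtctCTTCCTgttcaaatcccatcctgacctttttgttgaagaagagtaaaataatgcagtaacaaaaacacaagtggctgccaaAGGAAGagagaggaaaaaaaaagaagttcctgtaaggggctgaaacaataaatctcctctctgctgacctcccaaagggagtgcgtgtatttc
Robo4: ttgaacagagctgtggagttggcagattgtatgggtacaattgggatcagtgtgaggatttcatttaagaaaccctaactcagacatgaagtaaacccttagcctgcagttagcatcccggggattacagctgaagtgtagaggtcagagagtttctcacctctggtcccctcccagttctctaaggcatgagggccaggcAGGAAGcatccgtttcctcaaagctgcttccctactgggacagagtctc
Cldn5: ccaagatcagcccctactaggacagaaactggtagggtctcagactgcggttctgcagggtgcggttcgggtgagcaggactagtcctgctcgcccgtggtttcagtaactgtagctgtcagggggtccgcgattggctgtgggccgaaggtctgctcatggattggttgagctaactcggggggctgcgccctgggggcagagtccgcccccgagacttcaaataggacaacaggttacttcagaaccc
Emcn held the ETS letters at 174 and 93 bases before its start and Robo4 at 49 bases before its start, and Cldn5 held none. Those letters, on either strand, stood in 29.15% of 27025 promoter windows of the same length. The letters ACAAAG (or CTTTGT), a form of the core bound by SOX factors, were in none of the 3 windows and in 16.5% of all. Other forms of that core were not searched for, so the windows may hold them. The matches describe letters and are not measured sites.

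Ramp2 encodes the subunit that makes the calcitonin receptor-like receptor respond to adrenomedullin. It was 11.09, 11.23, 11.70 and 11.91 at day 4, 9.40, 9.79, 9.83 and 10.06 at day 11, and 9.21, 9.35, 9.60, 9.83 and 9.88 at day 12. No step between successive days passed the test, yet day 12 was 2.07-fold below day 8 (-1.05, SE 0.25) and 2.34-fold below non-pregnant uterus (-1.23, SE 0.23, limma adjusted p = 2.46e-05).

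Sox18 encodes a SoxF transcription factor of developing blood and lymphatic vessels. On the 6 day 6 arrays it ran from 8.96 to 9.71 with a median of 9.24, and at day 8 it was 8.85, 9.02, 9.05 and 9.06. At day 10 it was 8.31, 8.42, 8.43 and 8.45, at day 11 it was 7.07, 7.24, 7.69 and 7.76, and at day 12 it was 7.14, 7.21, 7.26, 7.27 and 7.50. The day 6 and day 8 arrays overlapped, all day 10 arrays lay below all day 8 arrays, and all day 11 arrays lay below all day 10 arrays. Sox18 fell at day 11 against day 10 (-0.96, SE 0.30, limma adjusted p = 0.0271) and was 3.29-fold lower at day 12 than at day 8 (-1.72, SE 0.28).

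Vwf encodes von Willebrand factor, stored in endothelial granules and in platelets. At day 8 it was 8.67, 9.11, 9.14 and 9.14, against a range of 9.42 to 11.55 with a median of 9.82 on non-pregnant arrays (-1.05, SE 0.32, limma adjusted p = 0.00764). The 2 groups did not overlap. On the 6 day 6 arrays Vwf ran from 8.15 to 10.26, the widest spread of the 10 genes in that group (SD 0.78), and its difference from non-pregnant uterus there, -0.73, was -0.43 (limma adjusted p = 0.181) without non-pregnant replicate 6. At day 10 Vwf was 9.66, 9.74, 9.78 and 9.90, above all day 8 arrays, but the difference of 0.75 did not pass (limma adjusted p = 0.155). At day 12 it was 2.21-fold below non-pregnant uterus, with no overlap.

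Taken by comparison with non-pregnant uterus, which all 6 share, members of the set rose first and then split. At day 4, 1 of 10 rose (Plvap) and 1 fell (Cldn5), against 8.97% of all genes changed in either direction. Without non-pregnant replicate 6 it was 5 up (Cdh5, Esam, Plvap, Ramp2 and Sox18) and 1 down, against 11.2%. At day 6, 7 rose and 1 fell, with a median difference of 0.79 beside -0.01 over all genes, of which 38.8% changed and 19.9% rose. At day 8 it was again 7 and 1, with a median of 1.10, against 51.0% of all genes changed and 24.7% higher. At day 10, 5 rose (Cdh5, Pecam1, Cldn5, Esam and Plvap) and none fell, against 53.9% of all genes changed and 26.6% higher; the share changed was near that of all genes. Without non-pregnant replicate 6 the counts were 7 up and none down at day 6, 8 up (Robo4 added, 0.40) and 1 down at day 8, and again 5 up at day 10. With median scaling the calls left were Plvap at day 4, Cdh5, Esam and Plvap at day 6, Cdh5, Cldn5, Emcn, Esam, Pecam1 and Plvap at day 8, and all 5 at day 10.

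At days 11 and 12 members lay on both sides of non-pregnant uterus. Cdh5, Esam, Cldn5 and Pecam1 rose at day 11, and Emcn, Robo4, Ramp2, Sox18 and Vwf fell, 9 of 10 against 58.2% of all genes changed, 30.7% higher and 27.5% lower. At day 12 the same 5 fell, and only Cdh5 and Esam passed as higher, 7 of 10 against 60.8% of all genes changed, 31.8% higher and 29.0% lower. Pecam1 (0.54) and Cldn5 (0.61) also passed at day 12 without non-pregnant replicate 6. Scaling arrays by their median in place of quantiles left Cdh5, Cldn5 and Esam called at day 11, and Cdh5, Esam and Ramp2 at day 12.

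**Figure D3:**
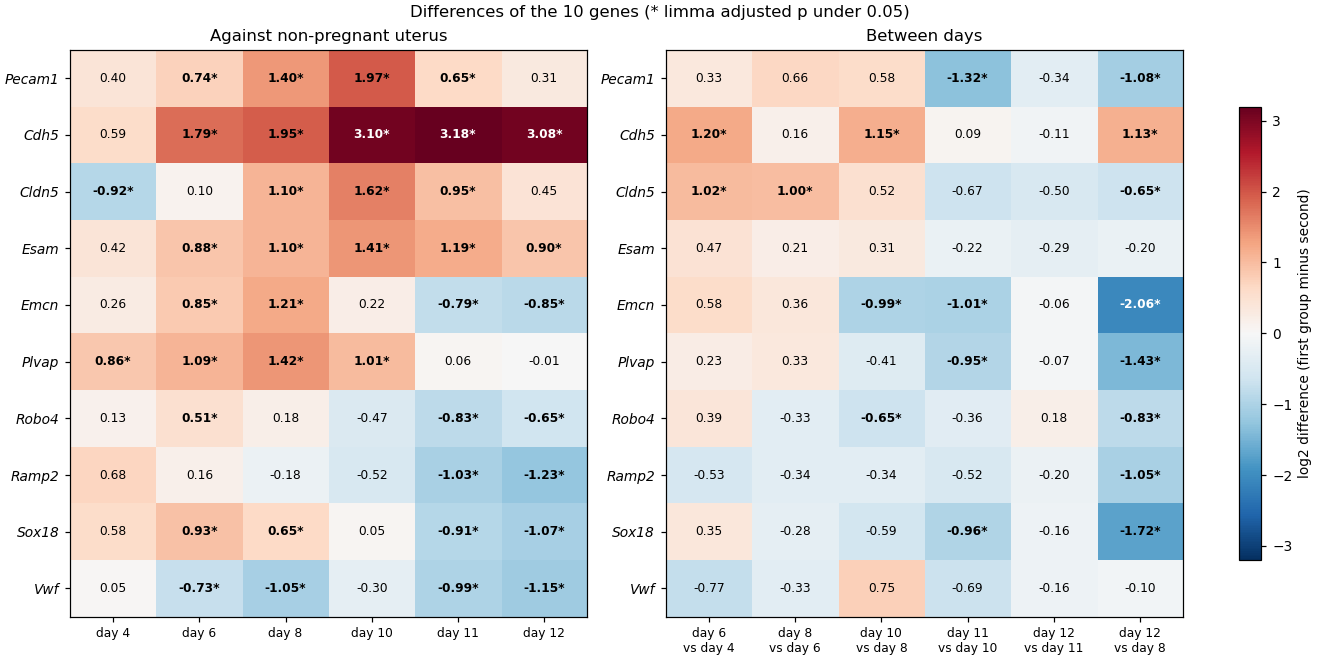
Log2 differences of the 10 genes (rows), each day minus non-pregnant uterus (left) and between days, first named minus second (right); colour and number give the difference, and bold with a star marks limma adjusted p under 0.05. The right panel shows no call at day 12 against day 11 and 7 falls with 1 rise, of Cdh5, at day 12 against day 8.

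Between successive days, 2 of 10 rose at day 6 against day 4 (Cdh5 and Cldn5, against 25.7% of all genes changed), 1 rose at day 8 against day 6 (Cldn5, against 20.3%), and Cdh5 rose while Emcn and Robo4 fell at day 10 against day 8 (against 18.0%). At day 11 against day 10, Pecam1, Emcn, Plvap and Sox18 fell and none rose, 4 of 10 against 14.2% of all genes changed and 5.95% lower, with a median of -0.68 beside 0.03 over all genes. None of 10 passed at day 12 against day 11, against 6.64% of all genes. At an unadjusted limma p under 0.05 the count there was 1, Cldn5 (-0.50). From day 8 to day 12, Pecam1, Cldn5, Emcn, Robo4, Plvap, Ramp2 and Sox18 fell, Cdh5 rose, and Esam (-0.20) and Vwf (-0.10) did not pass, 8 of 10 changed against 47.3% of all genes, and 7 of 10 lower against 23.3%. With median scaling no member stayed called at day 6 against day 4 or at day 10 against day 8, Cldn5 did at day 8 against day 6, only Plvap did at day 11 against day 10, and Emcn, Pecam1, Plvap and Sox18 at day 12 against day 8.

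The log2 ratio of Cdh5 to each of the other 9 within an array is given as a description with no test, since Cdh5 was singled out after the courses had been seen. At day 12 against day 8 the mean ratio was higher for all 9, by 1.23 (Vwf) to 3.19 (Emcn), and no ratio overlapped between the groups. At day 11 against day 10 it was higher by 0.76 to 1.41 for Pecam1, Cldn5, Emcn, Plvap, Sox18 and Vwf, with no overlap. For Esam, Robo4 and Ramp2 it was higher by 0.31 to 0.60, and the arrays overlapped. A ratio shows unequal change and does not say which gene moved.

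Over the 7 group means, Cdh5 and Esam varied together (Pearson r = 0.90), as did Emcn and Sox18 (0.94) and Robo4 and Sox18 (0.93), while Cdh5 and Ramp2 ran opposite (-0.81). Of the 45 pairs, 27 were positive over group means. With group means removed, 44 of 45 were positive over 33 arrays, with a median r of 0.60. Over the 23 arrays of days 6 to 12 the median was lower, 0.13, with 30 of 45 positive, and Esam with Emcn was 0.11 in place of 0.88. All values of a pair come from the same arrays and share their scaling, so these correlations are given as descriptions.

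**Figure D4:**
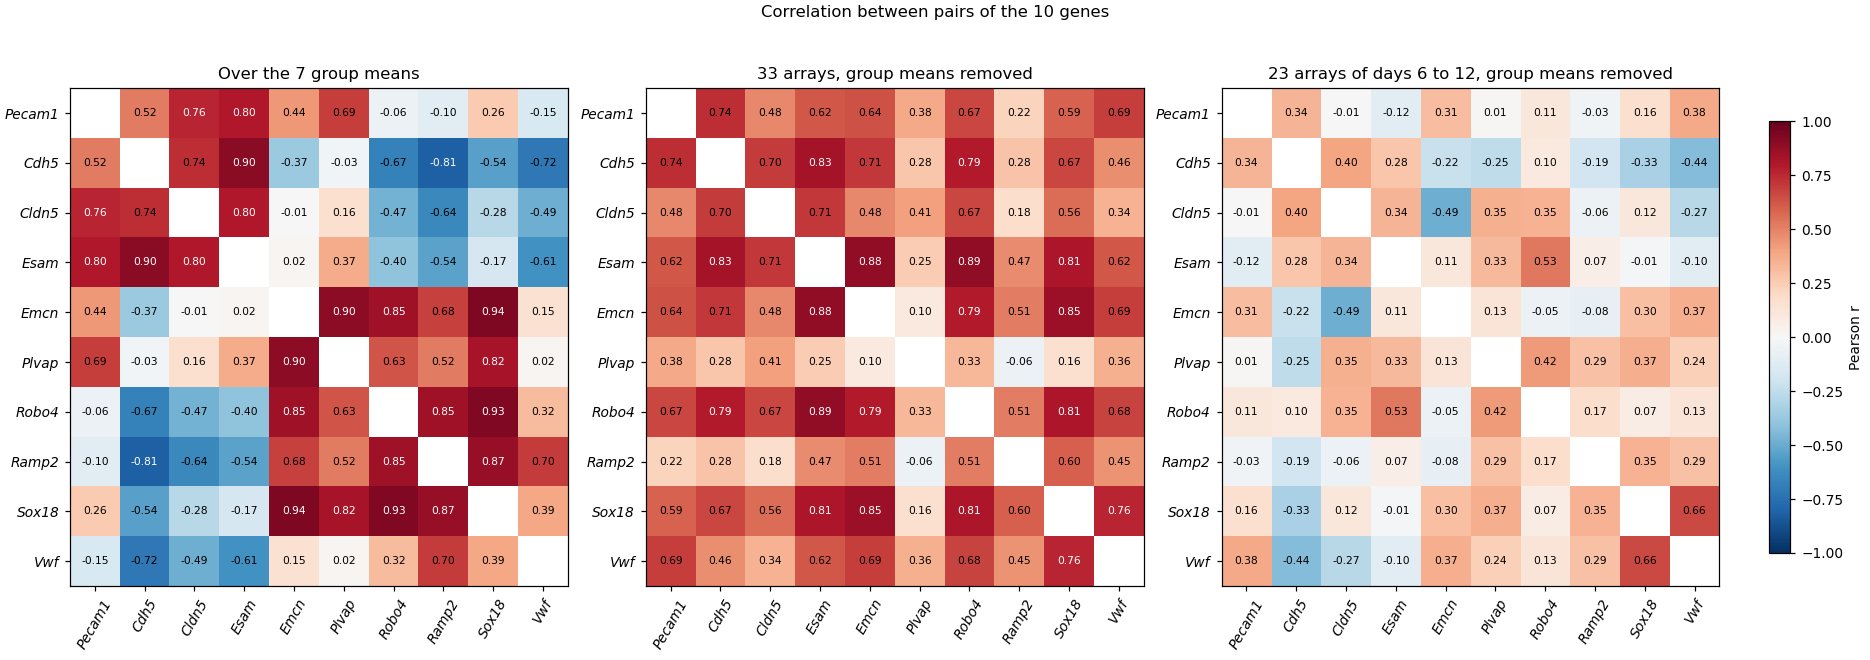
Pearson r between pairs of the 10 genes (rows and columns) over the 7 group means (left), over 33 arrays with group means removed (middle) and over the 23 arrays of days 6 to 12 with group means removed (right). Over group means Cdh5, Cldn5 and Esam are positive with each other and negative with Robo4, Ramp2 and Sox18, while Pecam1 is positive with Cdh5, Cldn5 and Esam and also with Plvap (0.69); the high values of the middle panel are mostly absent from the right one.

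Genes whose levels ran closest to single members were picked by r over the 33 arrays among 10237 genes. They were Mest (0.95) and Nostrin (0.94), a partner of endothelial nitric oxide synthase, for Cdh5, Bgn (0.96) and Il15 (0.94) for Emcn, and Adgrl4 (0.94) and Mmrn2 (0.93) for Sox18. For Robo4 it was Cd93 (0.92), for Esam Hilpda (0.92), for Plvap Mrgprf (0.92), for Ramp2 Ehd4 (0.89), for Pecam1 Slc29a1 (0.89), for Cldn5 C1qtnf1 (0.89) and for Vwf Arhgap24 (0.84). The mean of the 10 genes was followed most closely by Scarf1 (0.90), a scavenger receptor of endothelium. Emcn and Sox18 shared Il15, which encodes an interleukin.

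In a list of other endothelial genes, most fell from day 8 to day 12. Of 13 measured out of 18 listed, 7 rose and none fell at day 6 against non-pregnant uterus (38.8% of all genes changed, 19.9% higher), and 5 rose and none fell at day 8 (51.0% changed, 24.7% higher). The risers at day 8 included Nos3, the endothelial nitric oxide synthase (1.13), and Tie1, an orphan receptor kinase (1.19). From day 8 to day 12, 10 of 13 fell and none rose, with a median of -1.01, against 47.3% of all genes changed and 23.3% lower. They included Cd34 (-1.62), Nos3 (-1.44) and Tek, the angiopoietin receptor (-1.01). At day 11 against day 10, 4 of 13 fell, Cd34, Icam2, Nos3 and Tie1, against 5.95% of all genes lower. No gene of this list rose at day 12 against non-pregnant uterus, where 6 fell, against 60.8% of all genes changed and 29.0% lower. Kdr, the main VEGF receptor, is listed here but was above background on only 12 of 33 arrays.

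Partners of the junction proteins were taken next. Of 4 measured catenins and VE-cadherin partners out of 6 listed, 1 rose at day 8 against non-pregnant uterus, Ctnna1, alpha-catenin (0.34). Another 2 fell, Ctnnb1, beta-catenin (-0.49), and Vcl, vinculin (-0.69), against 51.0% of all genes changed. Of 5 measured tight junction partners out of 8 listed, none rose and 4 fell at day 6, against 38.8% of all genes changed. The 4 were Ocln, occludin, F11r, a junctional adhesion molecule (-1.28), Jam2 (-0.76) and Cgnl1 (-0.64). Ocln differed by -1.07, but was above background on only 1 of 6 day 6 arrays, against 5 of 6 non-pregnant arrays. Epithelium also makes tight junction partners. Of 8 measured markers of uterine epithelium all 8 fell at day 6, with a median of -2.24, where 38.8% of all genes changed. Their part in the result was not tested.

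Among 13 measured transcription factors of endothelium out of 14 listed, 6 fell and none rose at day 8 against non-pregnant uterus, and 7 fell and 1 rose at day 12. Counted in either direction, both were near the share of all genes changed, 51.0% at day 8 and 60.8% at day 12. By direction they were uneven: none rose at day 8, where 24.7% of all genes were higher. At day 12, 7 of 13 fell, where 29.0% of all genes were lower. Sox17 (-2.24) and Sox7 (-1.70), the SoxF relatives of Sox18, were lower at day 12, as were Klf2 (-1.06), a flow-responsive factor, and Lmo2 (-1.05). Both SoxF relatives had already fallen at day 6, when Sox18 had risen: Sox7 differed by -1.86 and Sox17 by -1.45, against 0.93 for Sox18. Markers of uterine epithelium also fell at day 6, and the cells in which the SoxF genes changed were not tested. The riser at day 12 was Tal1 (2.13), a factor that blood-forming cells also use.

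Ligands and partners of the receptors varied widely. Adm, adrenomedullin, the ligand of the RAMP2 receptor, rose at day 10 (2.20) and day 11 (1.53) against non-pregnant uterus and was at 0.08 at day 12. Unc5b, a receptor that ROBO4 binds in mouse, rose at every day from day 6. It was above background on 0 of 6 non-pregnant arrays, so its folds are lower bounds, set against the lowest detected signal on those arrays or its own signal where higher: at least 13.5-fold higher at day 8 (limma adjusted p = 7.48e-14) and at least 4.40-fold higher at day 12. Slit3 rose at day 8 (2.27) while Slit2 fell (-2.18), both guidance ligands of the Roundabout family. In all, 4 of 6 measured genes of this list, out of 8, rose at day 10 and 1 fell, against 53.9% of all genes changed. A further list held partners of Vwf and genes of venous activation. Of 5 measured out of 7 listed, 3 rose and 2 fell at day 8 against non-pregnant uterus (51.0% of all genes changed). At day 12, 1 rose and 2 fell, near the 60.8% of all genes changed. Selp, the P-selectin stored with von Willebrand factor, rose at day 8 (1.01) and fell at day 12 (-1.37). Icam1 (1.42) and Cd63 (1.11) also rose at day 8. Rab27a fell at day 8 (-2.05) and day 12 (-2.06), and Vcam1, a leukocyte adhesion molecule, fell at day 8 (-1.27) and rose at day 12 (1.30). Of 9 measured arterial and venous genes out of 10, 4 rose and none fell at day 6, against 38.8% of all genes changed and 19.9% higher. Among the risers were Notch4 (2.08) and Aplnr, the apelin receptor (1.46). From day 8 to day 12, 4 fell and 1 rose, against 47.3% of all genes changed and 23.3% lower. Counted in either direction, both counts of this list were near the share of all genes changed.

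Markers of other cells moved over the same days. The mean of 5 measured red cell genes lay between 12.39 and 13.69 from day 10 on. On all non-pregnant and earlier arrays it lay between 4.51 and 5.51. All 5 rose from day 10 on against non-pregnant uterus, where 26.6% to 31.8% of all genes were higher. The mean of 7 trophoblast genes lay between 10.36 and 10.79 from day 10 on and between 6.42 and 7.26 at day 8. That of 6 yolk sac genes lay between 10.75 and 11.16 at day 12 and between 5.16 and 5.60 at day 8. The labels do not say whether the tissue held the conceptus, and these genes were high on the arrays where Cdh5 was highest. Mural cell genes, which mark cells around vessels, ran the other way, with 8.22 to 8.51 at day 12 and 9.13 to 9.24 at day 8. At day 12 against day 8, 6 of 9 were lower and 1 higher, against 47.3% of all genes changed and 23.3% lower. Of the mural cell genes, Myh11 (-1.93) and Des (-1.52) are also among 5 smooth muscle genes of the myometrium, of which 4 were lower and none higher.

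The mean of 9 decidual stroma genes lay between 7.14 and 7.51 at day 12 and between 9.80 and 9.96 at day 8, the day on which Emcn and Plvap were highest. Platelet genes averaged 6.75 to 7.06 at day 12 and 5.53 to 5.68 at day 8. Of these, 4 of 5 were higher and 1 lower, against 47.3% of all genes changed, while Vwf differed by -0.10. Among those higher, Gp9 and Ppbp were above background on 0 of 4 day 8 arrays and Itga2b on 1 of 4, so their levels there were near the floor. Leukocyte genes, which overlap Pecam1 in the cells they mark, averaged 7.67 to 7.91 at day 12 and 7.81 to 9.42 in non-pregnant uterus. Against non-pregnant uterus 5 of 6 fell at day 12 while Lcp1 rose (0.48), against 60.8% of all genes changed and 29.0% lower. At day 12 against day 8, where Pecam1 fell (-1.08), Cd52 fell (-1.32) and no other leukocyte gene passed, against 47.3% of all genes changed. Lymphatic genes averaged 6.86 to 7.08 at day 12 and 7.38 to 7.47 at day 8. With 1 of 5 lower and 1 higher, the count was near the 47.3% of all genes changed. The mean of 2 adipose genes lay between 4.55 and 5.09 at day 12 and between 7.06 and 11.27 in non-pregnant uterus. The part of all these cells in the results was not tested.

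**Figure D5:**
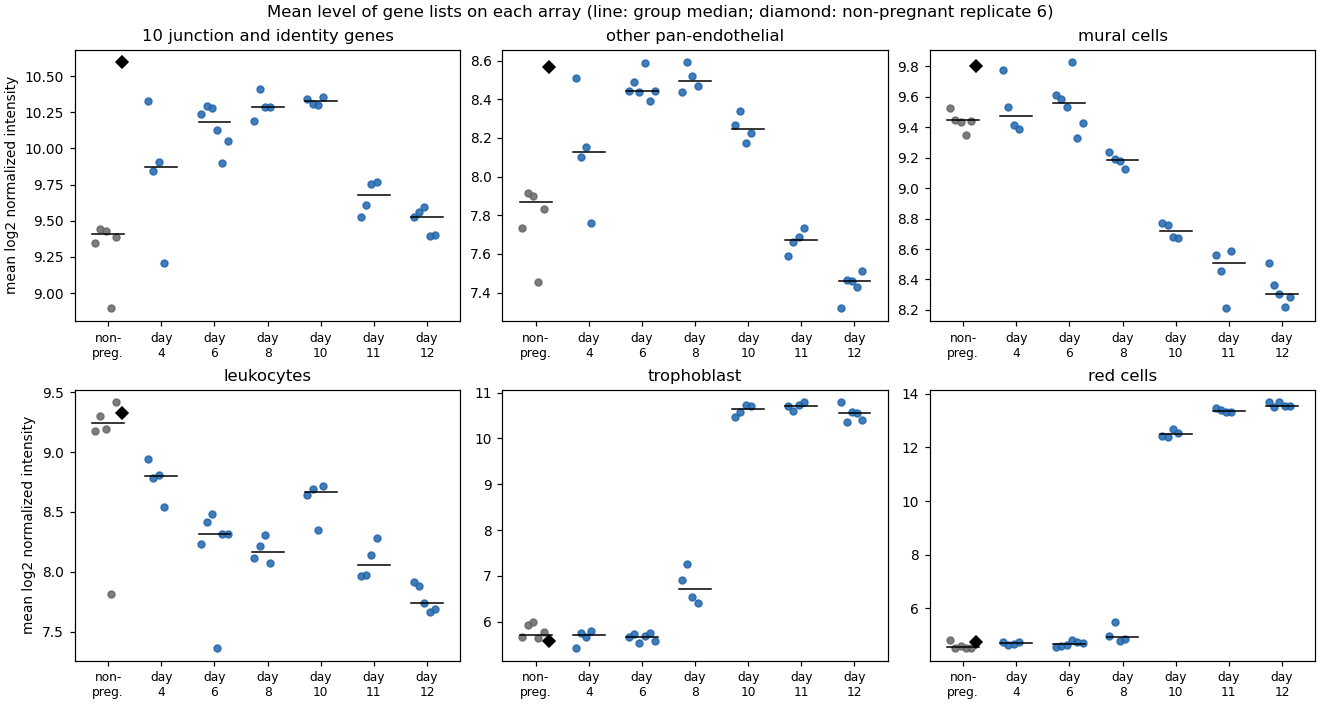
Mean log2 normalized intensity (vertical axis) over each list of genes on every array, by group (horizontal axis); grey points are non-pregnant arrays, blue points arrays of pregnant uterus, lines the group median, and the diamond is non-pregnant replicate 6. The 10 genes and 13 other pan-endothelial genes drop at days 11 and 12, mural cell genes decline from day 8, and trophoblast and red cell genes step up at day 10.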

How the data were processed

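Total RNA was extracted with Trizol and a column with DNase I, amplified to biotin-labelled cRNA and hybridised to Illumina bead arrays, per the labels' protocols. The deposited table holds an intensity for each of 45281 probes on each array, from 75.2 to 40565, not normalized, and a detection p-value per probe, per the file headers. A second deposited table holds log2 values of the authors for 16712 probes, with a median of 7.90 on all arrays; their normalization is not given in the sources used here, and they served as an alternative. Arrays carry no read depth, so their number limits the precision.

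Intensities were background-corrected with limma's nec (negative controls inferred from the detection p-values, offset 16), quantile-normalized and taken to log2. Probes detected at p under 0.01 on at least 4 arrays (21107) were kept, and those with 1 gene symbol were reduced to the brightest probe per gene, leaving 10412 genes. Of the 16712 probes, 15254 had 1 symbol, 5 several and 1453 none in the platform annotation. limma's lmFit and eBayes were fitted to all 33 arrays with 1 mean per group, and p-values were adjusted by Benjamini-Hochberg over all genes. Alternatives were other scalings and background settings, the authors' log2 values, only the groups compared, array weights, a replicate block, and leaving out arrays. The fitting code was tested on simulated data. R 4.3.3, limma 3.58.1 and Python 3.11.15 were used. The named genes are the 10 members, the members of the lists, and for likeness the genes with the highest Pearson r. The members and lists were chosen with earlier results of these data known. Replicate numbers did not pair arrays: the correlation of deviations had a median of 0.01 over 88 same-numbered pairs and 0.00 over 376 others.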

Additional observations from a re-analysis of the deposited data

Results flagged for a closer look

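Within each group of 4 to 6 arrays, the highest and the lowest value of each gene were set against the rest of the group by Dixon's test, which chance passes in about 1 of 20 groups. Of 70 sets of values, 5 had an array far from the others, and 4 of these were non-pregnant replicate 6. On that array Cdh5 was 9.11, with the next highest non-pregnant array at 7.73. Cldn5 was 10.16 there, with the next at 9.31. Pecam1 was 9.25 there, with the next at 8.04, and Vwf was 11.55, with the next at 10.03. The remaining one was Vwf on day 8 replicate 1, at 8.67, with the next lowest day 8 array at 9.11.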

How the results depend on the processing

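Counts of the 10 genes called, as reported, were 2, 8, 8, 5, 9 and 7 for days 4, 6, 8, 10, 11 and 12 against non-pregnant uterus, 2 for day 6 against day 4, 1 for day 8 against day 6, 3 for day 10 against day 8, 4 for day 11 against day 10, 0 for day 12 against day 11 and 8 for day 12 against day 8. Median scaling gave 1, 3, 3 and 3 for days 4, 6, 11 and 12 against non-pregnant uterus, 0 for day 6 against day 4, 0 for day 10 against day 8, 1 for day 11 against day 10 and 4 for day 12 against day 8. Fitting only the 2 groups compared gave 0 and 5 for days 4 and 6 against non-pregnant uterus, 4 for day 8 against day 6, 9 for day 10 against day 8, 7 for day 11 against day 10 and 1 for day 12 against day 11.
Array weights gave 8 for day 4 against non-pregnant uterus, 9 for day 6 against day 4, 7 for day 8 against day 6, 8 for day 10 against day 8 and 8 for day 11 against day 10. For day 8 against day 6 the count was 2 without background correction, 3 with cyclic loess, 2 with the authors' values and 2 without both dim arrays. With the replicate block it was 4 for day 6 against day 4 and 2 for day 8 against day 6; the numbers do not pair the arrays, and 16 of 33 differ between the deposited tables. Leaving out 1 array gave 1 to 6 for day 4 against non-pregnant uterus (6 without non-pregnant replicate 6, 1 without day 4 replicate 2 or 4), 2 to 4 for day 6 against day 4 (4 without day 4 replicate 1) and 1 to 2 for day 8 against day 6 (2 without day 6 replicate 1). The cause of these shifts was not tested.

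Uncalled differences close to 0 turned sign. Against non-pregnant uterus, median scaling gave Ramp2 0.050 at day 8 and Plvap 0.085 at day 12. Cyclic loess gave Plvap -0.0076 at day 11 and Emcn 0.015 at day 12 against day 11. The authors' values gave Sox18 -0.0076 at day 10, array weights gave it -0.16 and gave Plvap 0.20 at day 12, and the replicate block gave Plvap 0.034. Without both dim arrays Robo4 was -0.0060 and Vwf -0.083 at day 4, Cldn5 -0.13 and Ramp2 -0.0047 at day 6, Sox18 -0.19 at day 10 and Plvap 0.090 at day 12. Leaving out 1 array, Robo4 ran from -0.024 to 0.34 and Vwf from -0.17 to 0.34 at day 4, Cldn5 from -0.054 to 0.27 and Ramp2 from -0.051 to 0.31 at day 6, Sox18 from -0.19 to 0.31 at day 10, Plvap from -0.062 to 0.090 at day 12, and Emcn from -0.12 to 0.0076 at day 12 against day 11. The F test called all 10 genes under each alternative run except median scaling, which called 9.

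Over all genes, day 4 against non-pregnant uterus had 934 calls, 206 with median scaling (82.5% of them higher, against 49.6%), 10 with only these groups, 3900 with array weights, 2087 without both dim arrays and 483 to 1555 leaving out 1 array. Day 11 against day 10 had 1477 calls, 482 with median scaling, 3408 with only these groups, 3932 with array weights and 2399 without both dim arrays. Median scaling gave 1963, 3227, 3580 and 3996 for days 6, 8, 10 and 11 against non-pregnant uterus in place of 4043, 5306, 5615 and 6060, and 1412, 691, 794, 337 and 2943 in place of 2672, 2118, 1879, 691 and 4929 for days 6 against 4, 8 against 6, 10 against 8, 12 against 11 and 12 against 8. Its share of higher calls was 35.9% in place of 51.0% for day 6 against day 4, 76.0% in place of 49.6% for day 8 against day 6 and 67.0% in place of 55.3% for day 10 against day 8. Only the groups compared gave 2479 at day 6 against non-pregnant uterus, 3655 for day 10 against day 8 and 1469 for day 12 against day 11. Array weights gave 4638, 3923, 4034 and 1957 for days 6 against 4, 8 against 6, 10 against 8 and 12 against 11, the last 1163 without both dim arrays. With median scaling the median difference over all genes was 0.15 in place of 0.01 at day 4 against non-pregnant uterus and -0.16 in place of 0.01 at day 6 against day 4.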
